A study of Mus musculus with 14 samples.

Results

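The 10 genes described here, of 24100 in the table, encode the core of clathrin-mediated endocytosis. They were chosen by name and role, with earlier results of these data known. Ap2a1, Ap2a2, Ap2b1, Ap2m1 and Ap2s1 encode the subunits of the AP2 adaptor complex. Clta, Cltb and Cltc encode the clathrin light chains a and b and the heavy chain, and Dnm1 and Dnm3 encode dynamins of neurons. All 10 passed the filter on low counts in every fit below.

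RNA was sequenced from mouse cerebellum at P21 in 14 libraries. Astn2 WT and KO littermates had been crossed with the bacTRAP line Tg(Pcp2-L10a-EGFP), so every group carried the transgene, in which the promoter of Pcp2, a Purkinje cell gene, drives an EGFP-tagged ribosomal protein. TRAP is translating ribosome affinity purification: tagged ribosomes were pulled down with antibodies to GFP together with the RNA bound to them, and a small share of the same kind of lysate served as the whole cerebellum input. The groups were input from WT (n = 4, 1 female and 3 male), input from KO (n = 3, 2 female and 1 male), TRAP from WT (n = 3, 1 female and 2 male) and TRAP from KO (n = 4, 2 female and 2 male). Whether a library held the RNA of 1 animal or of a pool is not given in the sources used here, so the p-values measure the spread between these libraries.

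In clathrin-mediated endocytosis, AP2 binds phosphoinositides and cargo at the plasma membrane and recruits clathrin, whose heavy chains form the legs of the triskelion and carry the light chains. Dynamin assembles at the neck of the invaginated pit and cuts the vesicle free by hydrolysing GTP. In neurons the pathway retrieves synaptic vesicle membrane and internalises surface receptors, and in Purkinje cells AMPA receptor endocytosis through AP2 is part of long-term depression at parallel fibre synapses.

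Libraries held between 18799609 and 54229183 counts. Astn2 was at 88.7 to 104 CPM, counts scaled to a library of 1000000, in the input WT libraries and 0.729 to 0.968 in the input KO libraries, and at 117 to 146 in the TRAP WT and 1.06 to 2.11 in the TRAP KO libraries, as labelled. All 12 listed Purkinje cell markers had higher levels in TRAP, summing to 77479 to 97039 CPM against 6733 to 7972 in input, and all 10 granule cell and all 10 oligodendrocyte markers were lower, in either genotype. The genes listed as astroglial markers were Gfap, Aqp4, Slc1a3, Slc1a2, Aldh1l1, Gdf10, Hopx, Aldoc, Fgfr3 and Gja1. Of these 10, 8 were lower in TRAP and 2 higher. Their summed level was higher, at 8039 to 13080 CPM against 2748 to 3489 in input. The rise of the sum thus came from the 2 higher genes and does not describe the list. The levels below are CPM scaled by TMM, the trimmed mean of M values.

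TRAP WT replicate 3 stood apart from the other TRAP WT libraries. It had 78.7 CPM of Ap2s1, from 1898 counts, where replicates 1 and 2 had 437 and 549 CPM, from 6395 and 9756 counts. Between replicate libraries of a group, the chi-square statistic per degree of freedom over genes ran from 8.63 to 267, and the highest value was that of this library against TRAP WT replicate 2, so no pair looked like 1 library deposited a second time. The counts of calls for TRAP against input, and the values of some of the genes, are given with and without it.

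The start regions of 3 of the genes are shown. Ap2b1 and Cltb were 2 of the genes higher in TRAP on the TMM scale in both genotypes, and Cltc was lower. Ap2s1, Ap2m1 and Ap2a2 were also higher in both genotypes and are not shown. Each run is the 250 bases before the RefSeq start on the gene's own strand (build GRCm38.p6), read 5′ to 3′, with motif matches in capitals. The motifs searched, on both strands, were the CCAAT box spelled CCAAT, the GC box spelled GGGCGG, the TATA box spelled TATAAA and the palindrome TGACGTCA. Ap2b1 lies at chr11:83302447-83302696 on the plus strand, Cltb at chr13:54611374-54611623 on the minus strand and Cltc at chr11:86757568-86757817 on the minus strand.
Ap2b1: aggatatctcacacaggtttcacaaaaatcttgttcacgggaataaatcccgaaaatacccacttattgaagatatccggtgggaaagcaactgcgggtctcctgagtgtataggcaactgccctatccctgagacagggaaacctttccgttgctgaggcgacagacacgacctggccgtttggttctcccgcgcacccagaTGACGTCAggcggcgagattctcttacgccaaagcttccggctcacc
Cltb: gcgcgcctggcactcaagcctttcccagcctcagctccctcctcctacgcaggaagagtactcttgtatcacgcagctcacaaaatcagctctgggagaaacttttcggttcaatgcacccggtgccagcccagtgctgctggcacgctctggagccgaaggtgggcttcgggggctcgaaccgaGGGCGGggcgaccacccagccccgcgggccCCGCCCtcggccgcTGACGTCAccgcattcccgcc
Cltc: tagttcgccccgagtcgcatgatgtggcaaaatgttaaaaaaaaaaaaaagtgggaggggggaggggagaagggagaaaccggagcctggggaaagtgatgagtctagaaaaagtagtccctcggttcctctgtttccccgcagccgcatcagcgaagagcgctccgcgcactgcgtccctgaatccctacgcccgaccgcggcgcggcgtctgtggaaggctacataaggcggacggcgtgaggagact
The palindrome TGACGTCA began 47 bases before the start of Ap2b1 and 21 bases before that of Cltb. Over windows of 300 bases, from 250 before to 50 after the start, it was in 2 of the 10 genes (Ap2b1 and Cltb) and in 1.79% of 32851 RefSeq windows of the same length. Ap2s1, Ap2m1 and Ap2a2, also higher in TRAP, had no match to it. A link between the motifs and the TRAP levels was not tested. Counting the first RefSeq window of each gene, GGGCGG was in 8 of the 10 genes and 35.7% of all windows, CCAAT in 4 of the 10 and 37.4%, and TATAAA in 0 of the 10 and 13.6%. Clta alone had a second window, which held CCAAT, so with every window counted CCAAT was in 5 of the 10 and the other counts were as given. The motifs do not overlap one another in these runs, and a match describes letters, not binding. The window of Cltb was 68.3% G or C with 29 CpG dinucleotides, that of Cltc 59.7% with 27 and that of Ap2b1 51.3% with 16, where the medians of all windows were 52.7% and 7.

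With levels divided by the length of the longest coding transcript, in CPM per kilobase, Dnm1 led the input WT libraries at 261 ± 14.5 (SD, n = 4). Ap2m1 followed at 160.5 ± 3.55, Cltb at 129 ± 6.24, Ap2s1 at 115 ± 5.67 and Clta at 104 ± 4.37. Ap2a2 (54.1 ± 1.97), Ap2a1 (47.2 ± 1.90), Ap2b1 (32.1 ± 2.70), Cltc (25.8 ± 3.28) and Dnm3 (16.2 ± 2.09) came lower. Only 2 neighbouring pairs in this order overlapped in their libraries, Ap2s1 with Clta and Ap2b1 with Cltc. The input KO means gave the same order. With the median length of the coding transcripts in place of the longest, Dnm1 stayed first in both input groups and Cltc moved to the last place. Cltb then stood above Ap2m1, and Clta above Ap2s1, in both input groups.

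In the TRAP KO libraries the order per kilobase was led by Ap2s1 at 474 ± 18.8 (SD, n = 4), ahead of Ap2m1 at 335.5 ± 40.2 and Dnm1 at 253 ± 31.3. Cltc was last at 15.2 ± 2.38, just under Dnm3 at 19.2 ± 5.39, and these 2 genes overlapped. The TRAP WT means followed the same order, with Ap2s1 at 425 ± 294 (n = 3) with replicate 3 at 94.2 and the highest library at 657. By this length Ap2b1 stood above Ap2a1 in both TRAP groups and below it in both input groups, while with the median transcript length it stood above Ap2a1 in all 4 groups. The median length also left Ap2s1 first in both TRAP groups and put Cltb above Ap2m1 and Dnm1 there.

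**Figure D1:**
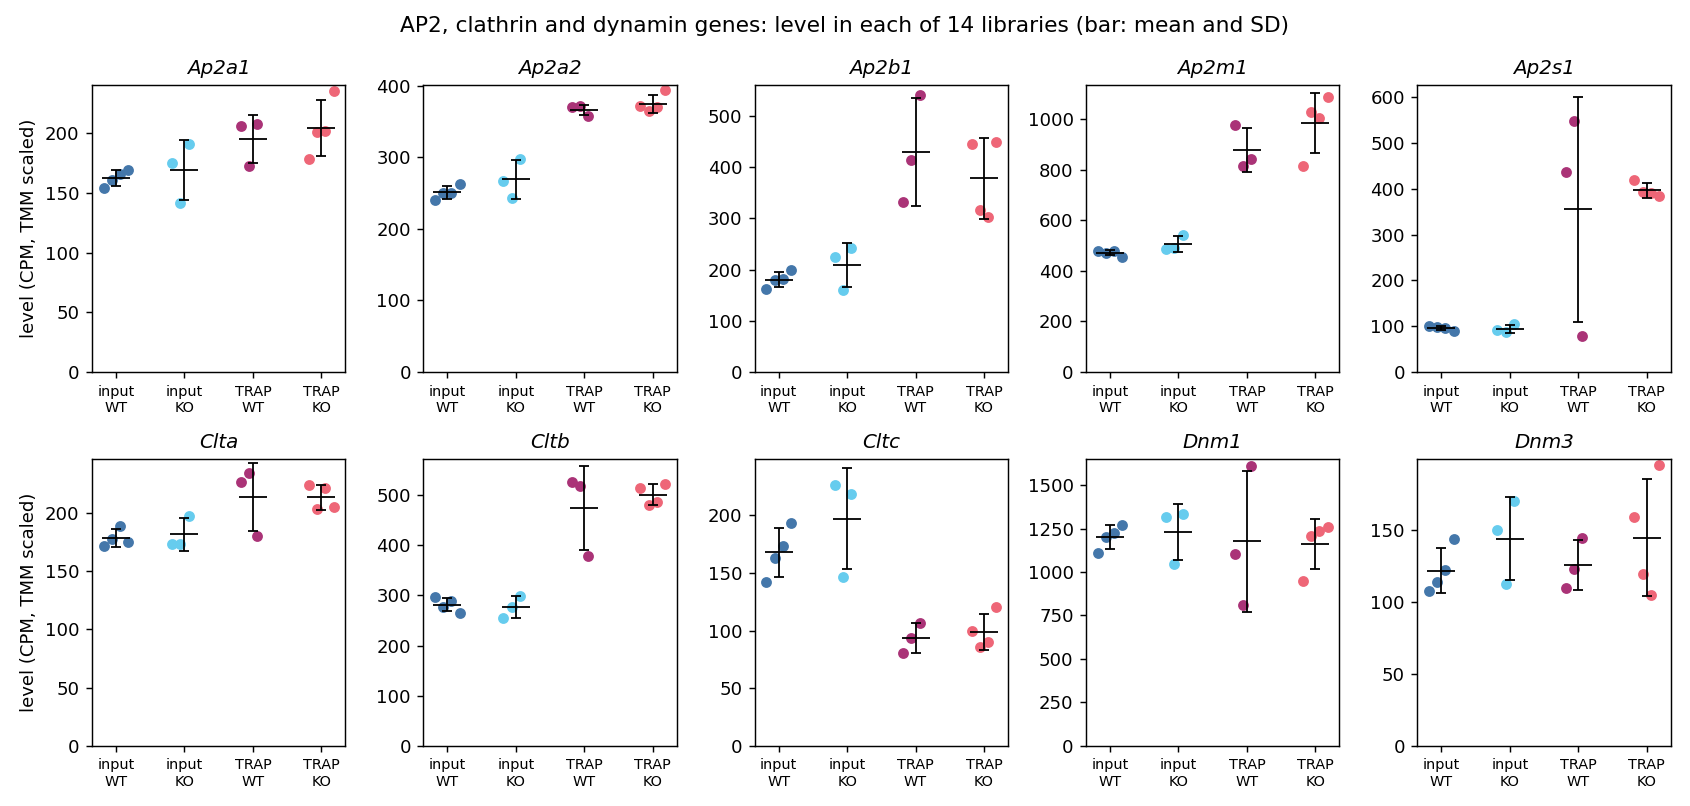
Level of each of the 10 genes (vertical axis, CPM scaled by TMM, from 0) in each of the 14 libraries, by group; horizontal bars are means and error bars SDs (n = 4 input WT, 3 input KO, 3 TRAP WT, 4 TRAP KO). Ap2a2, Ap2b1, Ap2m1 and Cltb in TRAP lie above all input libraries in both genotypes, and Cltc lies below. The single low point of Ap2s1 in TRAP WT is replicate 3 at 78.7 CPM.

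The first comparison set TRAP against input within each genotype, that is, RNA bound to tagged ribosomes against RNA of the whole cerebellum. On the TMM scale 7 of the 10 genes were higher in TRAP in WT (37% of all 16042 genes tested were) and 1 was lower (38.5% of all), while in KO 5 were higher (36.3%) and 1 lower (39.6%), at an adjusted p below 0.05 in edgeR's quasi-likelihood test. In either direction 8 of the 10 passed in WT (75.5% of all genes did) and 6 of the 10 in KO (75.9%). Without TRAP WT replicate 3 the split was 6 higher and 1 lower in both genotypes, where 36% and 40% of all genes were higher and lower in WT and 37.8% and 42.5% in KO. In WT 5 of the 10 had all TRAP libraries above all input libraries (39.2% of genes above 1 CPM did) and 1 had all below (36.5%). In KO 6 had all above (43.2%) and 1 all below (38%). The median log2 fold change of the 10 was 0.42 in WT and 0.36 in KO, where that of all genes was -0.09 and -0.11. Scaling by library totals in place of TMM shifted the all-gene median by -0.82 (WT) and -0.73 (KO), and the split then became 2 higher (19.5% of all genes were) and 6 lower (61.1%) in WT and 1 higher (19.5%) and 6 lower (60.3%) in KO, near the shares of all genes. Ap2s1 higher and Cltc lower were the calls that held in both genotypes under both scalings, with Ap2b1 higher also held in WT. In bulk samples such as these, more cells of a type and more RNA per cell cannot be told apart.

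Ap2s1 encodes the small sigma subunit of AP2, which belongs to the core of the complex and takes part in binding dileucine cargo motifs. The gene (Entrez 232910) lies on chromosome 7 at 16738444 to 16749290, plus strand, in GRCm38. It was at 101, 97.8, 95.7 and 90.0 CPM in the input WT libraries and at 91.3, 88.0 and 104 CPM in the input KO libraries. The TRAP KO libraries had 419, 392, 390.3 and 384 CPM, and the TRAP WT libraries 437, 549 and 78.7 CPM. TRAP WT replicate 3 was thus below every input library, and each of the other TRAP libraries was above every input library. The log2 fold change of TRAP against input was 1.87 ± 0.41 (SE) in WT and 2.08 ± 0.43 in KO (edgeR adjusted p = 8.52e-04 and 6.12e-04). Without TRAP WT replicate 3 it was 2.34 ± 0.10 in WT (adjusted p = 2.96e-10) and 2.04 ± 0.10 in KO. With library totals it was 1.05 in WT and 1.35 in KO and still past the threshold.

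Ap2b1 encodes the beta2 subunit, whose hinge and appendage bind clathrin and accessory proteins. The gene (Entrez 71770) lies on chromosome 11 at 83298719 to 83405035, plus strand, and the start region printed above lies inside that interval. Input WT libraries had 162, 180.3, 181 and 199 CPM, and input KO libraries 224, 159.6 and 242. TRAP WT libraries had 332, 415 and 542 CPM, and TRAP KO libraries 445, 316, 303 and 449. All TRAP libraries were above all input libraries, with a wide spread within TRAP. TRAP exceeded input by 1.26 ± 0.18 (WT) and 0.83 ± 0.18 (KO) on the log2 scale (edgeR adjusted p = 2.27e-05 and 0.00104), 1.06 in WT without TRAP WT replicate 3, and 0.44 in WT and 0.09 in KO with library totals, where the KO call was lost.

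Ap2m1 encodes the mu2 subunit, which binds tyrosine-based cargo signals and is phosphorylated by the kinase AAK1. The gene (Entrez 11773) lies on chromosome 16 at 20535480 to 20544909, plus strand. Input WT libraries had 479, 473, 477 and 456 CPM, and input KO libraries 486, 492 and 543. In TRAP the WT libraries had 976, 816 and 842 CPM, and the KO libraries 816, 1029, 1006 and 1089.7. The lowest TRAP library, at 816, was above the highest input library, at 543. On the log2 scale TRAP exceeded input by 0.90 ± 0.11 (WT) and 0.95 ± 0.12 (KO) (edgeR adjusted p = 6.10e-06 and 5.29e-06), and 0.08 and 0.22 with library totals, neither past the threshold.

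Ap2a1 and Ap2a2 encode the alternative large alpha subunits, the part of AP2 that binds phosphoinositides. Ap2a2 (Entrez 11772, chromosome 7, 141562180 to 141633011, plus strand) had 241, 249.9, 250.5 and 263 CPM in input WT and 267, 243 and 297 in input KO. In TRAP it had 370.4, 371 and 358 CPM in WT and 372, 365, 369.9 and 394 in KO. It was the steadiest gene of the 10 in TRAP, with a coefficient of variation of 2.0% in WT and 3.40% in KO, and all its TRAP libraries lay above all input libraries. The log2 fold change was 0.55 ± 0.09 in WT and 0.47 ± 0.09 in KO on the TMM scale (edgeR adjusted p = 6.79e-05 and 3.50e-04) and turned to -0.27 in both genotypes with library totals.

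Ap2a1 (Entrez 11771, chromosome 7, 44900373 to 44929490, minus strand) had 154, 161, 166 and 169 CPM in input WT and 175, 142 and 191 in input KO. In TRAP it had 206, 172 and 208 CPM in WT and 179, 201, 202 and 236 in KO. The WT groups did not overlap, though the lowest TRAP library was close to the highest input library, and the KO groups overlapped. The log2 fold change was 0.28 ± 0.12 in WT (edgeR adjusted p = 0.0470) and 0.25 ± 0.12 in KO (0.0714). The WT call held in 3 of the 14 fits that left out 1 library, those without TRAP WT replicate 2, TRAP KO replicate 4 or input KO replicate 2, and was lost in the other 11, where the adjusted p reached 0.225. With library totals the sign turned, to -0.54 in WT and -0.48 in KO. Of its 4300 exonic bases, 720 are shared with Fuz on the opposite strand, and whether counting used strand is not given in the sources used here.

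Clathrin heavy chain differed in direction from both light chains on the TMM scale. Cltc encodes the heavy chain (Entrez 67300, chromosome 11, 86694352 to 86757567, minus strand). It was at 142, 163, 174 and 194 CPM in input WT and 227, 147 and 219 in input KO. TRAP WT libraries had 80.9, 93.6 and 107 CPM, and TRAP KO libraries 99.7, 85.7, 89.9 and 121. All TRAP libraries were below all input libraries of the same genotype. In the fit, the log2 fold change was -0.82 ± 0.15 (WT) and -1.04 ± 0.15 (KO) (edgeR adjusted p = 2.22e-04 and 2.37e-05), and with library totals -1.64 and -1.77. In the order of all genes tested from lowest to highest, it stood at percentile 33.6 in WT and 28.9 in KO, so many genes were lower still.

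Cltb encodes light chain b (Entrez 74325, chromosome 13, 54592386 to 54611373, minus strand). Input WT libraries had 296, 277, 289 and 265 CPM, and input KO libraries 255, 277 and 299. In TRAP the levels were 526, 519 and 378 CPM in WT and 515, 481, 487 and 522 in KO. All TRAP libraries were above all input libraries, with TRAP WT replicate 3 the lowest of them. As log2 fold changes, these were 0.75 ± 0.12 (WT) and 0.86 ± 0.12 (KO) (edgeR adjusted p = 6.35e-05 and 2.40e-05). With library totals neither value passed, at -0.07 in WT and 0.13 in KO.

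Clta encodes light chain a (Entrez 12757, chromosome 4, 44003816 to 44032846, plus strand). It had 172, 177, 189 and 175 CPM in input WT and 173, 173 and 198 in input KO. TRAP WT libraries had 227, 234 and 179.9 CPM, and TRAP KO libraries 224, 203, 221 and 205. TRAP WT replicate 3 fell among the input libraries, so the WT groups overlapped, and the KO groups did not. The log2 fold change was 0.26 ± 0.11 in WT (edgeR adjusted p = 0.0419) and 0.23 ± 0.11 in KO (0.0709). Without TRAP WT replicate 3 both passed, at 0.36 in WT (0.00202) and 0.21 in KO (0.0245). The WT call held in 4 of the 14 fits that left out 1 library, those without TRAP WT replicate 3, TRAP KO replicate 3, TRAP KO replicate 4 or input KO replicate 3, and the other 10 gave an adjusted p of up to 0.327. With library totals the sign turned, to -0.56 in WT and -0.50 in KO.

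Dnm1 encodes the dynamin most abundant in neurons, which acts in synaptic vesicle recycling. The gene (Entrez 13429) lies on chromosome 2 at 32308471 to 32353349, minus strand. It had 1111, 1203, 1222 and 1270.5 CPM in input WT and 1315, 1047 and 1331 in input KO. TRAP WT libraries had 1107, 812 and 1611 CPM, and TRAP KO libraries 950.0, 1207, 1234 and 1262. The groups overlapped in both genotypes, and TRAP WT replicates 2 and 3 were the lowest and the highest of the 14 libraries. The fitted log2 fold change was -0.02 ± 0.18 (95% interval -0.40 to 0.37) in WT and -0.11 ± 0.18 (-0.50 to 0.28) in KO, neither past the threshold, and -0.84 in both genotypes with library totals, where both passed. Without TRAP WT replicate 3 the WT value was -0.33 (edgeR adjusted p = 0.0662).

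Dnm3 encodes a dynamin found in brain, at postsynaptic sites among others. The gene (Entrez 103967) lies on chromosome 1 at 161982450 to 162478321, minus strand. Input WT libraries had 107, 113, 122 and 143 CPM, and input KO libraries 149.7, 112 and 169.6. TRAP WT libraries had 109.8, 123 and 144 CPM, and TRAP KO libraries 159, 119, 105 and 195. The groups overlapped throughout. The fitted log2 fold change was 0.06 ± 0.19 (95% interval -0.34 to 0.47) in WT and -0.02 ± 0.19 (-0.43 to 0.38) in KO, neither past the threshold, and both were -0.76 and past it with library totals.

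Dnm2, the dynamin of most tissues and not among the 10 genes, was at 45.7 ± 1.53 CPM (SD, n = 4) in input WT and 14.6 ± 2.64 (n = 3) in TRAP WT. Its log2 fold change of TRAP against input was -1.66 ± 0.13 (WT) and -1.57 ± 0.12 (KO) (edgeR adjusted p = 6.88e-08 and 7.31e-08). Per kilobase, Dnm1 made up 89.9% of the sum of the 3 dynamin genes in input WT, 89.4% in input KO, 92.0% in TRAP WT and 91.4% in TRAP KO.

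**Figure D2:**
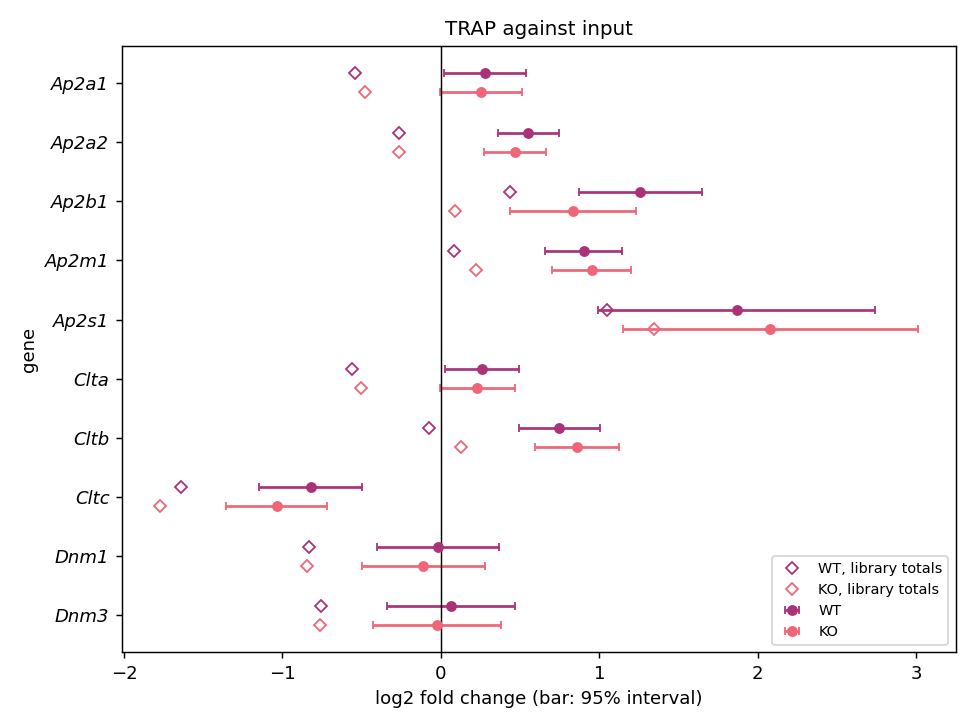
Log2 fold change of TRAP against input (horizontal axis) for each gene in WT and KO; filled points with bars are the TMM-scaled estimates with 95% intervals, open diamonds the estimates with library totals. Every diamond lies left of its point, and Ap2s1 (1.05 and 1.35) and Cltc (-1.64 and -1.77) keep their side of 0 and their call under both scalings.

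The ratio of paralogues within a library does not depend on the scaling between libraries. The log2 ratio of Clta to Cltb counts was -1.15 ± 0.07 (SD, n = 3) in TRAP WT and -0.66 ± 0.09 (n = 4) in input WT, and -1.23 ± 0.09 (n = 4) in TRAP KO against -0.61 ± 0.06 (n = 3) in input KO. In both genotypes the highest TRAP value stayed under the lowest input value. The difference was -0.49 in WT and -0.62 in KO, each with an exact two-sided permutation p of 0.0286, the smallest that 35 splits allow, and 0.0571 after Benjamini-Hochberg adjustment over 6 tests. Without TRAP WT replicate 3 the WT difference was -0.52 (exact permutation p = 0.0667, the smallest that 15 splits allow).

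For the alpha subunits, the log2 ratio of Ap2a1 to Ap2a2 was -0.91 ± 0.17 in TRAP WT and -0.63 ± 0.02 in input WT, and again every TRAP WT library was below every input WT library (difference -0.29, exact permutation p = 0.0286, adjusted 0.0571). In KO it was -0.88 ± 0.13 against -0.67 ± 0.09, with overlapping groups (difference -0.21, exact permutation p = 0.0857, adjusted 0.129). The log2 ratio of Dnm1 to Dnm3 was 3.18 ± 0.40 in TRAP WT and 3.31 ± 0.11 in input WT, and 3.04 ± 0.48 in TRAP KO and 3.11 ± 0.13 in input KO (exact permutation p = 0.714 and 0.829). In TRAP KO the count ratio of Dnm1 to Dnm3 ranged from 5.98 in replicate 1 to 11.8 in replicate 3. None of the 12 ratio tests, 6 of them between genotypes, passed after adjustment. With 0.0286 as the smallest exact permutation p, no test could pass unless most tests of its family reached that value. The absence of calls therefore does not show that the ratios were alike.

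**Figure D3:**
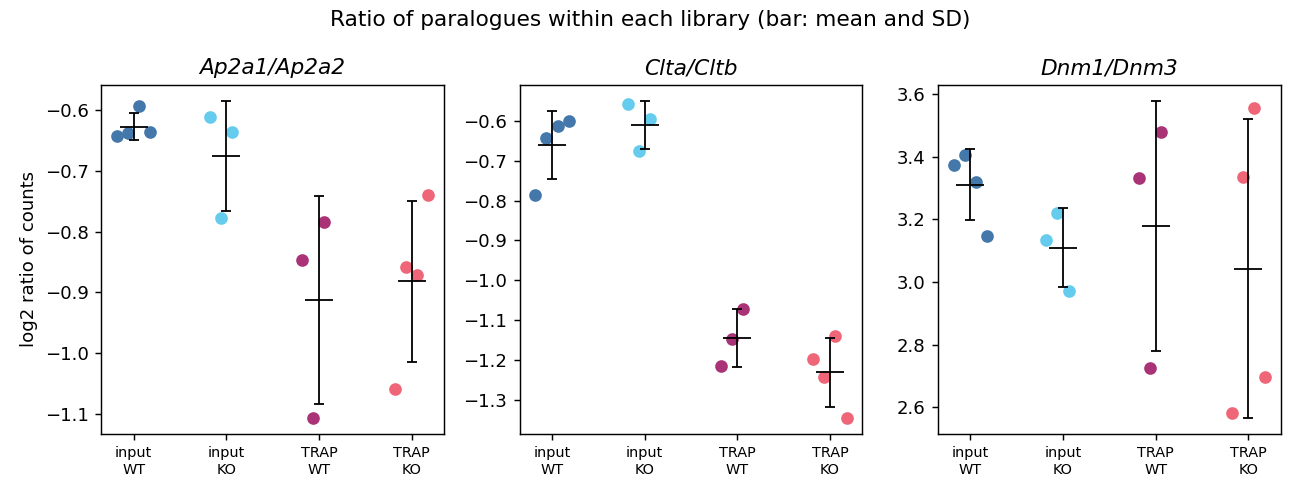
Log2 ratio of counts of Ap2a1 to Ap2a2, Clta to Cltb and Dnm1 to Dnm3 (vertical axes, not starting at 0) in each library by group; horizontal bars are means and error bars SDs. For Clta to Cltb all TRAP libraries lie below all input libraries, and for Dnm1 to Dnm3 the groups overlap.

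The second comparison set Astn2 KO against WT within each fraction. In TRAP 0 of the 10 genes passed (0.00707% of 14145 genes did, which was Astn2 alone), and 0 of 10 had an unadjusted p below 0.05 (1.5% of all genes did). The log2 fold changes ran from -0.13 ± 0.23 for Ap2b1 to 0.24 ± 0.24 for Dnm3, with 9 of the 10 above 0 and every edgeR adjusted p near 1. Clta was the closest to 0, at 0.00 ± 0.16 (95% interval -0.36 to 0.36). Ap2m1 was at 0.17 ± 0.17 (-0.21 to 0.56) and Dnm1 at 0.02 ± 0.24 (-0.53 to 0.57). Ap2s1 had the widest interval, 0.14 ± 0.51 (-1.03 to 1.32), and was at -0.30 ± 0.13 without TRAP WT replicate 3 (edgeR adjusted p = 0.940). Without that library Clta (-0.10) and Cltb (-0.05) were also below 0, Ap2b1 was at 0.03 and Dnm1 at 0.29. The rest of the 10 stayed above 0, and none passed. No gene of the 10 had KO libraries all above (1.62% of genes did) or all below (2.69%) the WT libraries.

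In input none of the 10 genes passed either (0.0188% of 15997 genes did), and 2 of 10 had an unadjusted p below 0.05 (13.7% of all genes did). These were Dnm3, at a log2 fold change of 0.35 ± 0.13 (edgeR adjusted p = 0.302), and Ap2b1, at 0.30 ± 0.12 (0.340). Cltc was at 0.33 ± 0.16 (0.393), Ap2a2 at 0.14 ± 0.07 (0.411) and Ap2m1 at 0.11 ± 0.06 (0.442). The other 5 ran from -0.03 ± 0.07 for Cltb to 0.11 ± 0.09 for Ap2a1. The median of the 10 was 0.11, and that of all genes -0.01. Ap2m1 was the one gene whose input KO libraries all lay above its input WT libraries, which was so for 6.76% of genes, and 0 of 10 had them all below (4.34%). Input KO replicate 2 was the lowest of the KO libraries for Ap2a1, Ap2a2, Ap2b1, Ap2s1, Cltc, Dnm1 and Dnm3. Without it, Ap2b1 was at 0.41 (edgeR adjusted p = 0.0517), Dnm3 at 0.45 (0.0769) and Cltc at 0.45 (0.0873), while all genes past the threshold went from 3 to 158. In that fit 5 of the 10 had an unadjusted p below 0.05, where 3261 of all genes did. Leaving out input KO replicate 1 or replicate 3 instead put Ap2b1 at 0.19 (edgeR adjusted p = 0.501) and 0.27 (0.821). In those fits 0 of the 10 had an unadjusted p below 0.05, where 1722 and 946 of all genes did. With 1 input WT library left out, the count ran from 0 (replicate 3) to 3 (replicate 4) of the 10. Of all genes, 1525 and 2161 had such a p in those 2 fits. With no sex term it was 0 of the 10 and 1758 of all genes. The summed level of the 6 choroid plexus markers ran from 9.88 to 1170 CPM among the input KO libraries and from 11.4 to 401 among input WT, and its part in these values was not tested.

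DESeq2's Wald test likewise called 0 of the 10 genes in TRAP, where it called 0.0212% of 14145 genes, and 0 of the 10 in input, where it called 1.83% of 15997.

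The difference between the genotype effects in TRAP and in input, tested as an interaction over all 14 libraries, ran from -0.43 ± 0.26 for Ap2b1 to 0.21 ± 0.58 for Ap2s1. None of the 10 passed, none had an unadjusted p below 0.05 (2.68% of 16042 genes did), and every edgeR adjusted p was 0.999. No gene of the table passed in this test, while DESeq2's Wald test called 1.

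**Figure D4:**
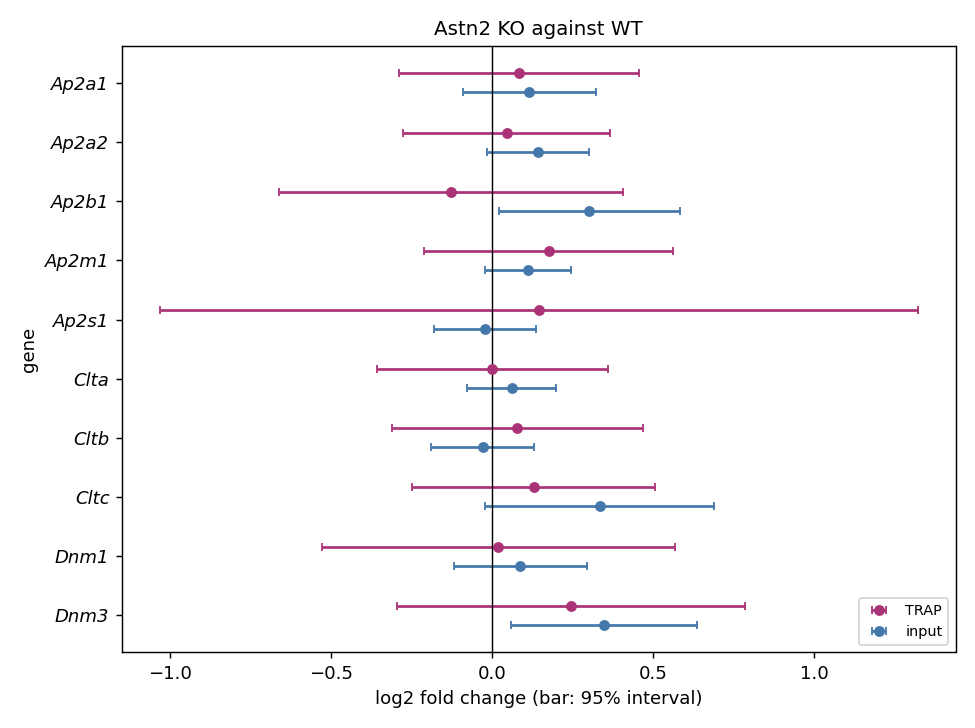
Log2 fold change of Astn2 KO against WT (horizontal axis) for each gene in TRAP and in input; points are edgeR estimates and bars 95% intervals. All TRAP intervals include 0, and the input intervals of Ap2b1 and Dnm3 lie just above 0 before adjustment for the number of genes.

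The low Ap2s1 value of TRAP WT replicate 3 was set against transcript length, a description added after the values were seen. Genes whose longest coding transcript is under 1000 bases (423 genes) had a median log2 difference of -0.46 in that library from the other TRAP WT libraries. The median was -0.17 for 1000 to 2000 bases, 0.05 for 2000 to 4000 and 0.19 for 4000 and over. Ap2s1, with a longest transcript of 836 bases, was at -2.62, and only 4 of the 423 short genes, itself included, were at or below that value. Among the other genes, Cltb (2186 bases) was at -0.47 and Clta (1710 bases) at -0.35. Dnm1 (4605 bases) was at 0.76, Ap2b1 (5625 bases) at 0.54, Dnm3 (7523 bases) at 0.31 and Cltc (6519 bases) at 0.29. Ap2a2 (4646 bases) was at -0.05, below the median of its length class, Ap2m1 (2937 bases) at -0.08 and Ap2a1 (3449 bases) at 0.14. TRAP WT replicate 2 had a median of 0.48 for the short genes. The part of transcript length in the comparisons was not tested.

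**Figure D5:**
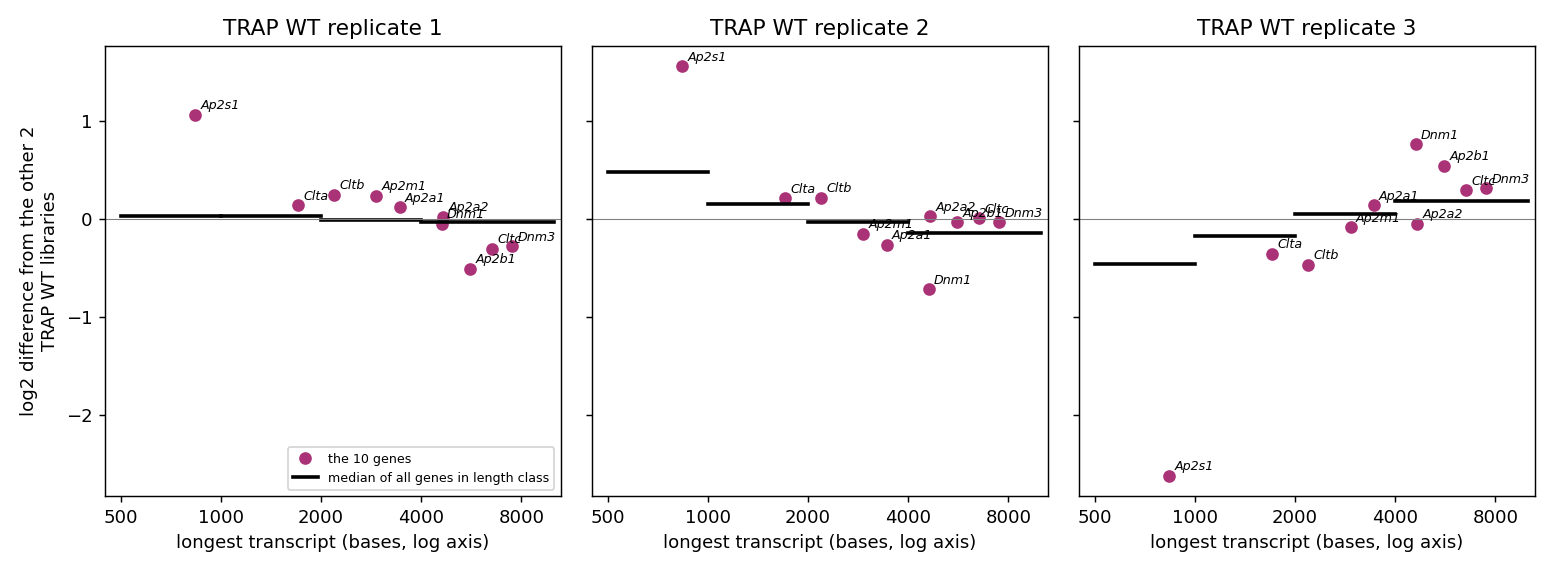
Log2 difference of each TRAP WT library from the other 2 (vertical axis) against the length of the longest coding transcript (horizontal log axis, bases); points are the 10 genes, black bars medians of all genes in 4 length classes. In replicate 3 the class medians go from -0.46 for the shortest to 0.19 for the longest class, and Ap2s1 lies at -2.62.

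The genes with the most similar profile over the 14 libraries were found by the root mean square difference of log2(CPM + 1) after removing each gene's mean, among 5946 genes. Rpl36al was nearest to Ap2s1 (0.111), Rpl6 to Cltb (0.0568), Bzw1 to Ap2a2 (0.0551), Dcaf6 to Ap2m1 (0.0647) and Pcbp2 to Clta (0.0631). Mark3 was nearest to Ap2a1 (0.0719), Hsph1 to Ap2b1 (0.112), Ankrd17 to Cltc (0.116), Gpatch2l to Dnm1 (0.0719) and Tanc1 to Dnm3 (0.106). These values describe likeness in 14 libraries that share depth and fraction.

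Other genes of the pathway were read from 5 lists of 77 genes in all, to be set against the shares of all genes tested that were higher and lower in TRAP, 37% and 38.5% in WT and 36.3% and 39.6% in KO. Of 15 cargo adaptors, 3 were higher in TRAP and 10 lower in both genotypes, and their median log2 fold change was -0.47 (WT) and -0.48 (KO). Epn1, an epsin that binds ubiquitinated cargo and bends membrane, was at 1.24 ± 0.10 in WT, and Numb and Hip1r were at 0.98 ± 0.19 and 0.50 ± 0.10. The stonins Ston1 and Ston2, of which Ston2 sorts synaptotagmin, were at -2.83 ± 0.27 and -2.44 ± 0.17, and Dab2 was at -2.35 ± 0.24.

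Of 13 early scaffolds and AP2 kinases, 2 were higher and 9 lower in WT, and 1 higher and 8 lower in KO (median -0.64 and -0.40). Necap1, which binds the AP2 appendages, was at 1.01 ± 0.09 in WT. The pit initiators Fcho2 (-1.77 ± 0.14) and Eps15 (-1.39 ± 0.13) and the scaffold Itsn1 (-1.19 ± 0.15) were lower. Of 14 fission and membrane curvature genes, Dnm2 among them, 3 were higher and 9 lower in WT, and 2 higher and 8 lower in KO (median -0.55 and -0.46). Pacsin2, an F-BAR protein that binds dynamin, was at 2.22 ± 0.20 in WT, Sh3glb2 at 0.55 ± 0.17, Snx33 at -1.34 ± 0.32 and Sh3gl3, an endophilin, at -2.25 ± 0.24.

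Of 12 uncoating and phosphoinositide genes, 5 were higher and 2 lower in both genotypes (median 0.07 in each). The lipid kinase Pip5k1b, which makes the phosphoinositide that AP2 binds, was at 1.65 ± 0.10 in WT, and the phosphatases Inpp4a and Synj2 at 1.84 ± 0.13 and 1.07 ± 0.20. Pik3c2a was at -1.70 ± 0.15 and Synj1, the synaptojanin of nerve terminals, at -0.68 ± 0.14. Of 23 genes of the other adaptor complexes, 9 were higher and 7 lower in WT, and 9 higher and 6 lower in KO (median -0.03 and 0.00). The higher counts of both these lists were near the all-gene shares of 37% and 36.3%. Ap1s1, the sigma subunit of AP1, was at 2.08 ± 0.16 in WT, and Ap4s1 and Ap3s2, sigma subunits of AP4 and AP3, at 1.69 ± 0.09 and 1.10 ± 0.11. Ap1g2 was at -2.37 ± 0.36, Ap4e1 at -2.13 ± 0.25 and Ap1s2 at -1.49 ± 0.24. All of these named values passed in both genotypes on the TMM scale. With library totals the split in WT was 1 higher and 13 lower for the cargo adaptors, 1 and 11 for the early scaffolds and kinases, 1 and 12 for fission and curvature, 2 and 7 for uncoating and phosphoinositides and 4 and 14 for the other adaptor complexes, where 19.5% of all genes were higher and 61.1% lower. Hip1r and Sh3glb2 then turned below 0 in both genotypes, and Numb and Synj2 in both and Necap1 in KO no longer passed. In edgeR's test 0 of the 77 genes passed in either genotype comparison or in the interaction.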

How the data were processed

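RNA-seq counts per gene were analysed for 14 libraries of mouse cerebellum input and TRAP. The authors deposited a table of whole-number counts per gene; the submitters' processing notes name Salmon 0.8.2 and mm10, with no role, and the counting step, annotation and strand setting are not given in the sources used here. If the counts are Salmon estimates, they were rounded before deposit.

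All 24100 genes were fitted with edgeR 4.0.16 in R 4.3.3 (quasi-likelihood test, TMM, filterByExpr, sex as a covariate, Benjamini-Hochberg adjustment over all genes tested, threshold 0.05). Genotype was tested within each fraction on 7 libraries, and TRAP against input and the interaction on all 14. Paralogue ratios were compared with exact two-sided permutation tests over 35 splits. Alternatives were library totals, DESeq2 1.42.0 size factors and its Wald test, limma 3.58.1 with sample quality weights, other filters, no sex term, the replicate number as a block, and each library left out in turn. The fits were run on simulated counts, with 100 genes changed by 1 and 100 by 0.5 on the log2 scale. For genotype in TRAP 12% and 0% of these passed, for the interaction 16% and 0%, and for genotype in input 96% and 65%. The absence of calls in TRAP and in the interaction therefore cannot exclude changes of these sizes. Levels are CPM, per kilobase of the longest coding GENCODE M21 transcript where genes are compared; promoters are RefSeq's.

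All 10 genes are named. Of the other lists, Dnm2 and up to 3 genes with the highest and 3 with the lowest fold change in WT, among those past the threshold in both genotypes, are named. The single most similar gene was searched among genes with a mean log2(CPM + 1) of at least 5. The genes and lists were chosen with earlier results of these data known.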

Additional observations from a re-analysis of the deposited data

Results flagged for a closer look

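Values of each gene and ratio were screened, in the groups of 4 libraries, for a library far from the others by Dixon's criterion (a gap of more than 0.829 of the group's range). Of 26 values, 2 met it, and chance alone gives about 1 in 20. Dnm1 in TRAP KO replicate 1 was at 950.0 CPM, where the other TRAP KO libraries were at 1207, 1234 and 1262, a gap of 0.842 of the range. The log2 ratio of Ap2a1 to Ap2a2 in input WT replicate 3 was -0.59, where the other 3 were all at -0.64, a gap of 0.870 of a narrow range. The groups of 3 libraries, TRAP WT among them, were not screened.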

How the results depend on the processing

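Counted in either direction, 6 to 8 of the 10 genes passed for TRAP against input in either genotype over 22 alternatives. In the main fits 75.5% (WT) and 75.9% (KO) of all genes passed. The directions did not hold: with library totals 2 were higher and 6 lower in WT, and 1 higher and 6 lower in KO. There 19.5% of all genes were higher in each genotype, and 61.1% (WT) and 60.3% (KO) lower. The number stayed at 0 for genotype over 16 alternatives in each fraction and for the interaction over 22. Library totals turned the sign of Ap2a1 (-0.54 in WT, -0.48 in KO), Ap2a2 (-0.27 in both), Clta (-0.56 in WT, -0.50 in KO), Cltb (-0.072 in WT), Dnm3 (-0.76 in WT) and Astn2 (-0.35 in WT). The all-gene median shifted by -0.82 (WT) and -0.73 (KO). A mean count of at least 50 in the filter moved the 10 genes by a median of -0.21 in WT and -0.19 in KO and ended the WT calls of Ap2a1 (0.07, adjusted p = 0.606) and Clta (0.05, adjusted p = 0.667). Single-gene calls of TRAP against input were lost 30 times in WT and 3 times in KO, and gained 1 time in WT and 5 times in KO. Values that had not passed changed sign 22 times for genotype in TRAP, 4 times for genotype in input, 22 times in the interaction, and 3 and 4 times for TRAP against input in WT and KO. Over all genes, the count past the threshold for genotype in input was 3, and 292 in DESeq2's Wald test, 5 with its size factors, 8 with quality weights, 1 with the replicate block and 1 to 158 when 1 library was left out; in TRAP it was 1, and 3 in DESeq2 and 4 with quality weights.

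The labels do not say that equal replicate numbers share an animal. Same-numbered input and TRAP libraries of a genotype had the same sex in every case. The correlation of deviations between them was 0.24, 0.23 and 0.09 in WT and 0.20, 0.18 and -0.04 in KO. Between same-numbered libraries of the 2 genotypes it ran from -0.11 to 0.15. These values do not settle whether the numbers pair the libraries, and the main fits treated the libraries as unpaired. With the replicate number as a block (replicate block) for TRAP against input, Ap2a1 (0.28, adjusted p = 0.0972) and Clta (0.24, adjusted p = 0.140) in WT no longer passed and Ap2s1 was at 1.49 (adjusted p = 0.0146). Over 3 pairs, where the smallest exact sign-flip permutation p is 0.25, the Clta to Cltb difference was -0.47 in WT and -0.58 in KO. Leaving out 1 library gave differences of -0.53 to -0.45 in WT and -0.66 to -0.58 in KO for that ratio. Depth was at least 18799609 counts in every library. The common biological coefficient of variation that edgeR fitted was 0.247 for TRAP and 0.109 for input.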
